A study of Mus musculus with 11 samples.

Results

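Ccl2, Ccl7 and Ccl20 encode CC chemokines, small secreted proteins that draw leukocytes out of the blood. They are 3 of the 43346 genes in an expression table of mouse bile duct epithelial cells (cholangiocytes), and they were taken by gene name. They were selected on their measured levels in the groups compared here, so their levels and differences are given as a description, without a test. CC chemokines are named for adjacent cysteines near the start of the protein, and they act on G protein-coupled receptors of the Ccr family on leukocytes. Ccl2 draws monocytes and some lymphocytes through Ccr2, Ccl7 acts on several receptors including Ccr1 and Ccr2, and Ccl20 draws Ccr6-bearing lymphocytes and dendritic cells, mainly at epithelial surfaces. Injured cholangiocytes are known to secrete chemokines, and transcription of many of these genes depends on NF-kB, while their short-lived mRNAs are bound by proteins such as tristetraprolin, encoded by Zfp36.

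The cells came from livers of wild-type male C57BL/6 mice aged 14 to 16 weeks, and all libraries share that strain, sex and genotype. R15 mice (3 libraries) received a diet containing DDC, a porphyrin-inducing compound used to model cholestasis, for 10 days and were then returned to chow for 15 days. DDC mice (4 libraries) were studied after 10 days of the same diet, and Control mice (4 libraries) received chow. Cells were taken from dissociated liver with magnetic beads against EpCAM, an epithelial surface protein, over 2 columns, and polyadenylated RNA was sequenced from stranded libraries. Levels are in FPKM, fragments per gene length and sequencing depth, as deposited. No label says outright that each library is a separate animal, so p-values measure the spread between these libraries.

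Each library held 49339240 to 72929107 reads, and an FPKM near 1 (0.9 to 1.1) stood for a median of 122.5 reads. The 10 cholangiocyte markers summed to FPKM 10062 to 11072 in R15, 11787 to 13271 in DDC and 9469 to 12186 in Control, and Epcam was at FPKM 287 to 305, 360 to 431 and 259 to 315 in the same order of groups. RNA of other cells was present. The 9 pancreatic acinar markers, which a liver preparation should lack, summed to FPKM 792 to 6604 in 5 libraries (R15 3, DDC 1 and Control 1, 2 and 3) and to at most 11.4 in the other 6. Macrophage and Kupffer cell markers stood apart in R15 2, with a sum of 794 against 147 and 177 in the other R15 libraries. In bulk RNA, more cells of a type and more RNA per cell cannot be told apart.

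All 3 genes lie on the forward strand and have 3 exons in GENCODE M21 on mm10. Ccl2 (ENSMUSG00000035385) occupies chr11:82035571-82037453 and Ccl7 (ENSMUSG00000035373) chr11:82045712-82047525, with 8258 bases between them, whereas Ccl20 (ENSMUSG00000026166) lies alone at chr1:83116766-83119167. The model Gm17268 spans Ccl2 on the opposite strand, shares 0 exon bases with it and is listed at FPKM 0 in all 11 libraries. RefSeq upstream sequences (GRCm38.p6, the 250 bases before the gene start) were matched for 16 of the 23 CC ligand genes in the table, Ccl20 among them. The 4 below are shown because they belong to Ccl20 itself, to Ccl9, also higher in R15 than in Control, and to Ccl12 and Ccl8. Ccl12 and Ccl8 lie side by side near Ccl2, and their mean levels differed in opposite directions in DDC against Control. Both were low, and neither of those calls is counted as support below. Capitals mark matches, on either strand, to the NF-kB consensus, the AP-1 site TGANTCA, the CCAAT box bound by NF-Y and the TATA box TATAAA, and adjoining capitals are overlapping matches.
Ccl20 (chr1:83116516-83116765, forward strand): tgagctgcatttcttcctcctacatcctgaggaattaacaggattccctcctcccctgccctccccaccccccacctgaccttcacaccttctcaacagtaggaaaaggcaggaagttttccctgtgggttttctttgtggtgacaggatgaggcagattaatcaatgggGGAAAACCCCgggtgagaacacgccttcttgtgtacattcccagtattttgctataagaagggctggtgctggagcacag
Ccl9 (chr11:83578637-83578886, reverse strand): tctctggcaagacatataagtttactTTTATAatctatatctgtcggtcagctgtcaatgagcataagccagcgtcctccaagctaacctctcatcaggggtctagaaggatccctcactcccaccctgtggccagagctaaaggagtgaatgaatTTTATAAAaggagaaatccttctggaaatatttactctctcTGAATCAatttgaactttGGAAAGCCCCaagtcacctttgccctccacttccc
Ccl12 (chr11:82101595-82101844, forward strand): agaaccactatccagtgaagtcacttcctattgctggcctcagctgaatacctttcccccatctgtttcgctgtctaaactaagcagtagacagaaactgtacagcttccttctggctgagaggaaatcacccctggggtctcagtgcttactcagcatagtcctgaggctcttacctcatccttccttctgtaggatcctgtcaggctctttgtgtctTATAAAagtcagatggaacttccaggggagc
Ccl8 (chr11:82114935-82115184, forward strand): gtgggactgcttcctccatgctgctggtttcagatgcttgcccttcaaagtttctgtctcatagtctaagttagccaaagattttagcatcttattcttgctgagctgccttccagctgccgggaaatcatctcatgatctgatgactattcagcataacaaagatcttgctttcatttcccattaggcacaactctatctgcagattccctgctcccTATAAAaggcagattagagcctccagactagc
In the Ccl20 sequence the NF-kB consensus stands at -80 to -71 from the gene start, and in the Ccl9 sequence at -35 to -26. The RefSeq table holds 22 upstream sequences for the 16 ligand genes, since some genes have several entries. The consensus was in those 2 of the 22, and in 3.90% of all 32851 upstream sequences. A TATA box stands at -31 to -26 in Ccl12 and -32 to -27 in Ccl8, and 5 of the 22 ligand sequences held one against 12.4% of all sequences. The CCAAT box was found in 8 of the 22 (entries of Ccl1, Ccl19, Ccl25, Ccl27a and Ccl27b) and in 33.9% of all sequences, and the AP-1 site in 3 of the 22 and in 6.75%. These are letter matches in a short window and do not show binding.

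Ccl2 had FPKM 31.0, 40.5 and 21.3 in R15, 193, 235, 218 and 182 in DDC, and 0.636, 0.745, 0.304 and 0.340 in Control. No groups overlapped, and every R15 library lay between the DDC and the Control libraries. The means were 30.9 ± 9.62 in R15 (SD, n = 3), 207 ± 24.2 in DDC and 0.506 ± 0.218 in Control (n = 4 each). The DDC mean was 408 times the Control mean, and the R15 mean was 15.0% of the DDC mean and 61.1 times the Control mean. Fitted differences on the log2(FPKM + 1) scale were 7.11 ± 0.18 (SE) for DDC against Control, -2.74 ± 0.19 for R15 against DDC and 4.37 ± 0.19 for R15 against Control. The added 1 understates the change of a gene this low in Control, where Ccl2 rested on 24 to 51 reads against 1567 to 2948 in R15 and 11660 to 17378 in DDC.

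Ccl2 was the most abundant CC ligand in every R15 and DDC library and stood 13th or 14th of 23 in the Control libraries. It made up 25.4% to 46.3% of the summed FPKM of the 23 CC ligand genes in R15, 47.6% to 57.1% in DDC and 0.571% to 2.15% in Control. Among all genes of the table, its level ranked between 1491 and 3334 in R15, between 168 and 235 in DDC and between 14683 and 16970 in Control. The top CC ligand in Control was Ccl22 in 1 library, Ccl27a in 1 and Ccl28 in 2.

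Ccl7 had FPKM 1.51, 2.07 and 0.849 in R15, 5.04, 4.65, 4.62 and 4.52 in DDC, and 0.319, 0.0864, 0.180 and 0.0928 in Control. The groups did not overlap and stood in the same order as for Ccl2, at a far lower level. Means were 1.48 ± 0.611 in R15 (SD, n = 3), 4.71 ± 0.230 in DDC and 0.170 ± 0.108 in Control (n = 4 each), so that R15 stood at 31.4% of DDC and at 8.71 times Control, and DDC at 27.8 times Control. On the log2(FPKM + 1) scale the differences were 2.29 ± 0.14 (SE) for DDC against Control, -1.23 ± 0.15 for R15 against DDC and 1.06 ± 0.15 for R15 against Control. Only 44 to 106 reads per R15 library, 183 to 295 per DDC library and 4 to 18 per Control library lay behind these values. The level of Ccl2 over that of Ccl7, both per length, was 19.6 to 25.1 in R15, 38.2 to 50.6 in DDC and 1.69 to 8.63 in Control. The neighbouring pair therefore did not move by the same factor.

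Ccl20 had FPKM 3.73, 5.97 and 4.45 in R15, 14.7, 22.8, 23.4 and 18.4 in DDC, and 1.14, 0.609, 4.63 and 5.33 in Control. Every DDC library was above all others, and the R15 and Control libraries overlapped. Means were 4.72 ± 1.14 in R15 (SD, n = 3), 19.8 ± 4.07 in DDC and 2.93 ± 2.40 in Control (n = 4 each). DDC stood at 6.77 times Control, and R15 at 23.8% of DDC. Within Control the level ranged 8.75-fold, with Control 3 and 4 high and Control 1 and 2 low, and without Control 3 and 4 the DDC mean was 22.7 times the Control mean and the R15 mean 5.40 times, against 1.61 times with all libraries. The log2(FPKM + 1) differences were 2.62 ± 0.41 (SE) for DDC against Control, -1.86 ± 0.44 for R15 against DDC and 0.76 ± 0.44 for R15 against Control. That last difference changed sign when the 5 libraries with acinar transcripts were left out, to -0.14, an alternative chosen after seeing the data that leaves 1 Control library. The place of R15 relative to Control for Ccl20 therefore rests on which Control libraries are used.

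**Figure D1:**
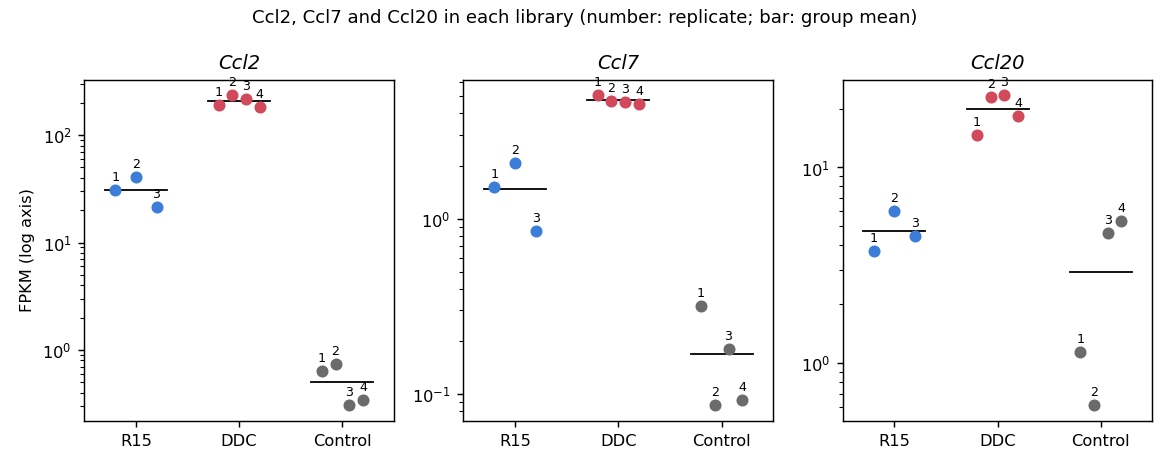
FPKM of Ccl2, Ccl7 and Ccl20 on log axes in each library, with R15, DDC and Control from left to right; numbers are replicates and bars are group means (n = 3, 4 and 4). DDC libraries are highest for each gene, and R15 libraries lie clear of Control for Ccl2 (21.3 to 40.5 against 0.304 to 0.745) and Ccl7 but among the Control libraries for Ccl20.

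A level of FPKM 1 was reached by Ccl2 in 7 libraries and by Ccl7 in 6, all of them R15 or DDC, and by Ccl20 in 10 of 11. Ccl2 and Ccl7 therefore passed the low-value filter (FPKM 1 in at least 3 libraries) only through the groups in which they were high. Among the other listed genes, Ccl12 reached it in the 4 DDC libraries alone, and Ccl8 and Ackr2 in no DDC library. That filter left 15264 genes for limma, whose p-values were adjusted over all of them by Benjamini-Hochberg and called under 0.05. In DDC against Control 33.5% of tested genes were higher and 31.9% lower, so a call on its own is common here.

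Of the other 20 CC ligand genes in the table, 13 were tested. In DDC 7 were higher than in Control and 2 lower, with a median log2 difference of 1.34 over the 13 and 0.003 over all tested genes. The 7 were Ccl3, Ccl4, Ccl6, Ccl9, Ccl12, Ccl17 and Ccl22. Ccl6 and Ccl9, mouse chemokines of myeloid cells that act on Ccr1, rose by log2 3.08 ± 0.44 (SE; adjusted p = 0.00015, limma) and 3.09 ± 0.21 (adjusted p = 1.1e-06). Ccl6 had FPKM 3.12 to 17.2 in R15, 29.4 to 62.1 in DDC and 3.06 to 5.18 in Control, and Ccl9 had 2.73 to 6.46, 13.3 to 19.4 and 0.665 to 1.39 in the same groups. Ccl3 and Ccl4, chemokines made by activated macrophages and lymphocytes, rose by 3.06 ± 0.30 (adjusted p = 1.3e-05, limma) and 2.18 ± 0.22 (adjusted p = 1.6e-05). Ccl12, another ligand of Ccr2 in the mouse, had FPKM 1.39 to 1.58 in DDC and at most 0.161 in Control, a log2 difference of 1.20 ± 0.13 (SE). It passed the low-value filter through DDC alone, so its call is not counted as support. The median of 1.34 above includes it, and without it 6 of 12 ligands were higher. With no filter its adjusted p was 4.2e-05 (limma).

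The Ccr4 ligands Ccl17 and Ccl22, best known from dendritic cells, varied widely within groups. Ccl17 had FPKM 4.94 to 21.3 in R15, 23.1 to 57.6 in DDC and 0.927 to 14.8 in Control, and rose in DDC by log2 2.60 ± 0.61 (SE; adjusted p = 0.0036, limma). Ccl22 had 3.04 to 15.8 in R15, 15.0 to 25.3 in DDC and 1.59 to 18.4 in Control, and its rise of 1.67 ± 0.59 (adjusted p = 0.029, limma) lost its call without DDC 2, 3 or 4 or Control 2 or 4 (adjusted p 0.054 to 0.077). Control 1 held the highest Ccl17 and Ccl22 among the Control libraries and the most acinar RNA, and leaving out the 5 acinar libraries gave log2 4.34 for Ccl17 and 3.09 for Ccl22, whose dependence on that RNA was not tested.

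The 2 ligands lower in DDC were Ccl27a and Ccl8. Ccl27a, an epithelial chemokine best known from skin, had FPKM 5.89 to 6.73 in R15, 2.40 to 2.72 in DDC and 5.74 to 7.55 in Control, a difference of log2 -1.09 ± 0.08 (SE; adjusted p = 1.5e-06, limma) in DDC against Control and 1.09 ± 0.08 (adjusted p = 5.2e-06) in R15 against DDC. It shares 8 exon bases with Il11ra1 on the opposite strand and has a near-identical copy, Ccl27b, listed at FPKM 0.0667 or below, so its counting is uncertain. Ccl8, a Ccr8 ligand in the mouse, had FPKM 0.0845 to 1.68 in R15, 0.241 to 0.475 in DDC and 0.930 to 2.39 in Control. Ccl8 reached FPKM 1 in no DDC library, so its call as lower is not counted as support. Its difference in DDC against Control, log2 -0.79 ± 0.28 (SE; adjusted p = 0.030, limma), lost its call without DDC 1, 2 or 4 (adjusted p 0.053 to 0.067) and with no low-value filter (adjusted p = 0.053). Ccl5, Ccl24, Ccl25 and Ccl28 did not pass. Ccl5, a T cell chemokine, missed at log2 1.34 ± 0.55 (SE; adjusted p = 0.052, limma) and passed without R15 1, R15 3 or Control 1 (adjusted p 0.011 to 0.029). Ccl28, a chemokine of mucosal epithelia, had -0.46 ± 0.38 (adjusted p = 0.31, limma) and passed as lower, at -0.87, without Control 2 (adjusted p = 0.0085). Ccl24, an eosinophil chemokine, had -0.60 ± 0.71 (adjusted p = 0.48) and Ccl25, known from gut and thymus, -0.33 ± 0.28 (adjusted p = 0.33), and the Ccl25 model shares 204 exon bases with Elavl1 on the opposite strand.

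**Figure D2:**
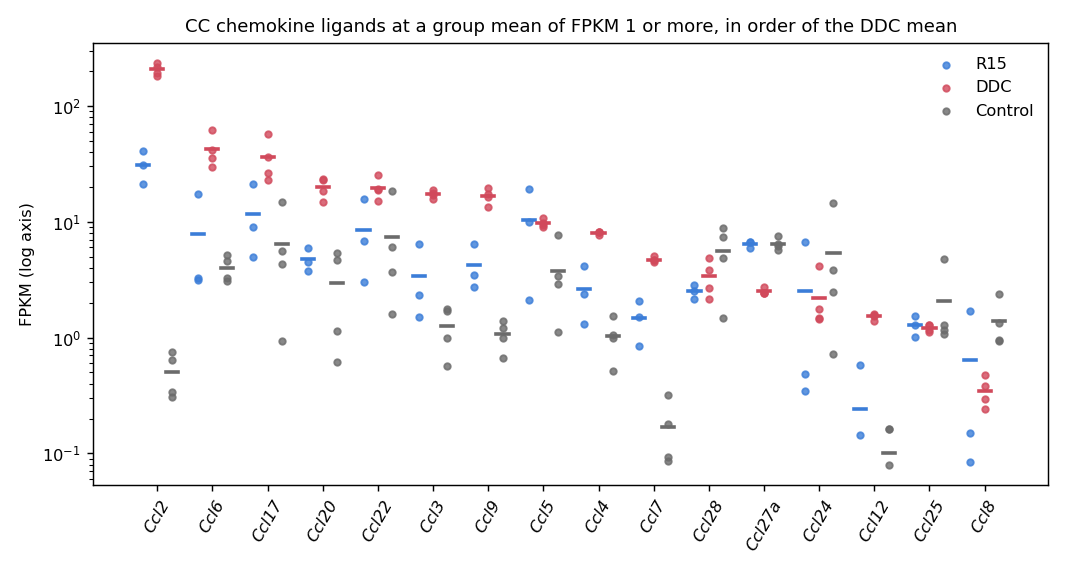
FPKM on a log axis of the 16 CC ligand genes with a group mean of FPKM 1 or more, ordered by their DDC mean, with R15, DDC and Control side by side; points are libraries (values of 0 are not drawn) and bars are group means. Ccl2 in DDC (mean 207) stands above every other ligand, of which Ccl6 is the next (mean 42.2), while Ccl27a is lowest in DDC.

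In R15 against DDC, where 33.4% of tested genes were higher and 28.8% lower, 1 of the 13 other ligands was higher (Ccl27a) and 5 were lower, with a median log2 difference of -1.05 over the 13 and 0.04 over all genes. The split over all genes was 5099 higher and 4397 lower, and 6172 and 3305 when each library was rescaled to the same FPKM total, which moved the median of all genes from 0.04 to 0.14. Those lower were Ccl3 by log2 -2.21 ± 0.33 (SE; adjusted p = 0.00024, limma), Ccl4 by -1.40 ± 0.24 (adjusted p = 0.00063), Ccl6 by -2.61 ± 0.48 (adjusted p = 0.00090), Ccl9 by -1.80 ± 0.22 (adjusted p = 8.4e-05) and Ccl12 by -1.05 ± 0.14. Ccl12 again had passed the filter through DDC alone, and without it 4 of 12 ligands were lower. The median of -1.05 over the 13 is the difference of Ccl12 itself, so that median is not counted as support either. Ccl17 did not pass, at -1.66 ± 0.66 (adjusted p = 0.050, limma), and passed without R15 2, Control 1 or Control 4 (adjusted p 0.021 to 0.025). It also passed with a pseudocount of 5, the filter at FPKM 5, median-of-ratios scaling, quantile normalization, 2-group fits and voom. The adjusted p of Ccl17 there was 0.019 to 0.048 (limma). It did not pass with a pseudocount of 0.1, no filter, rescaling or robust estimation. Ccl22 was at -1.33 ± 0.63 (adjusted p = 0.092, limma) and passed without R15 2 or Control 1 (both adjusted p = 0.034). Ccl5, at FPKM 2.10, 9.86 and 19.3 in R15 and 8.97 to 10.7 in DDC, and Ccl8, Ccl24, Ccl25 and Ccl28 did not pass either.

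In R15 against Control, where 6.87% of tested genes were higher and 2.72% lower, Ccl9 alone among the 13 passed, at log2 1.29 ± 0.22 (SE; adjusted p = 0.0088, limma), with all 3 R15 libraries above all 4 Control libraries. Its call was lost in a fit of these groups alone (adjusted p = 0.055, limma). Without the 5 acinar libraries, which leaves 1 Control library, the Ccl9 difference was log2 1.66 and did not pass. The median was 0.34 over the 13 ligands and 0.05 over all genes. The split over all genes, 1048 higher and 415 lower, was 622 and 804 after median-of-ratios scaling, 594 and 468 after quantile normalization and 753 and 701 on recovered reads. Ccl4 stood at 0.79 ± 0.24 (adjusted p = 0.068, limma) and passed without R15 1 (1.07, adjusted p = 0.024), and Ccl28, at -0.75 ± 0.41 (adjusted p = 0.25), passed without Control 2 (-1.16, adjusted p = 0.018). Ccl3 was at 0.85 ± 0.33 (adjusted p = 0.12, limma) and Ccl6 at 0.47 ± 0.48 (adjusted p = 0.54).

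Along chromosome 11, which carries 11 of the 23 CC ligand genes, Ccl2 and Ccl7 open a cluster of 6 that ends with Ccl1, 141 kb from the Ccl2 start. Ccl11, 22.3 kb from Ccl2, was listed at FPKM 0 in 10 of 11 libraries and at 0.0160 in Control 2, and Ccl1 never passed 0.0330. Ccl12 had a mean of 0.242 in R15, 1.53 in DDC and 0.1003 in Control, whereas its neighbour Ccl8, 79.6 kb from Ccl2, had 0.639, 0.348 and 1.40. Ccl5, Ccl9, Ccl6, Ccl3 and Ccl4 form a second group 1490 to 1627 kb from the Ccl2 start. Ccl20 on chromosome 1 has no other CC ligand gene within 1000 kb, and its nearest neighbours with reads were Gm29519, at most FPKM 0.0445, and Daw1, a gene of ciliary dynein assembly, at a mean of 1.88 in R15, 0.506 in DDC and 0.823 in Control.

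**Figure D3:**
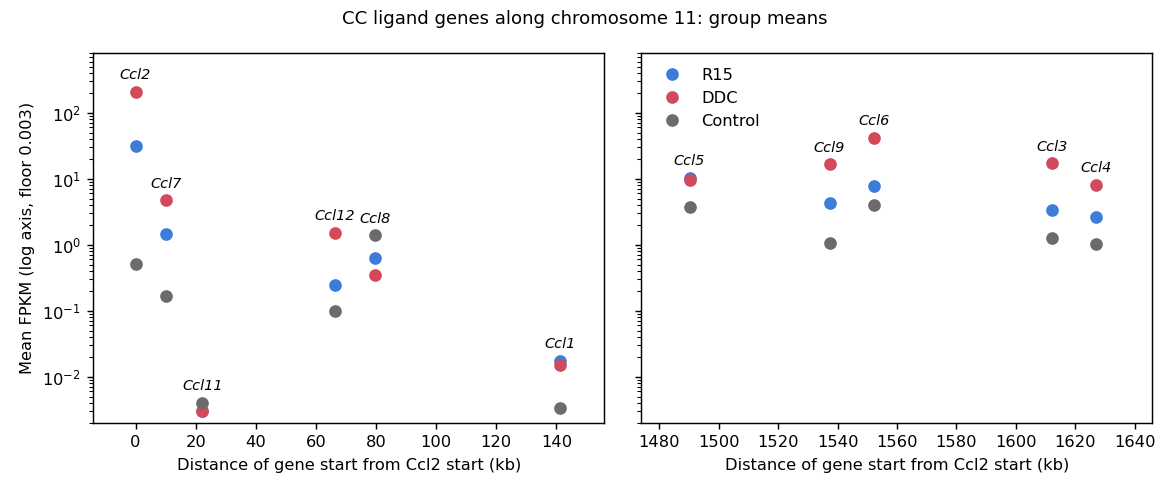
Mean FPKM on a log axis (means below 0.003 drawn at 0.003) in R15, DDC and Control of 11 CC ligand genes on chromosome 11, by the distance of the gene start from the Ccl2 start in kb, in 2 windows. Ccl2 stands highest in DDC (207), Ccl11 and Ccl1 lie near the floor, and Ccl8 is highest in Control (1.40).

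Receptors for these ligands moved with DDC. Of 15 CC receptor and atypical receptor genes, 6 were tested, and 5 were higher and 1 was lower in DDC than in Control. Over all tested genes the shares were 33.5% and 31.9%. The median log2 difference over the 6 was 2.19. The 1 lower, Ackr2, reached FPKM 1 in no DDC library, so its call is not counted as support. The medians here include it. Ccr2, the receptor of Ccl2, Ccl7 and Ccl12 on monocytes, had FPKM 2.10, 4.99 and 3.19 in R15, 14.3, 17.8, 13.2 and 16.1 in DDC, and 1.41, 0.707, 0.719 and 0.487 in Control. Its groups did not overlap, and it was higher in DDC by log2 3.17 ± 0.20 (SE; adjusted p = 9.4e-07, limma), lower in R15 than in DDC by -1.93 ± 0.22 (adjusted p = 5.3e-05) and higher in R15 than in Control by 1.25 ± 0.22 (adjusted p = 0.0097). Ccr1, which binds Ccl3, Ccl6, Ccl7 and Ccl9, rose in DDC by 2.55 ± 0.19 (adjusted p = 1.9e-06, limma). Ccr7, which guides dendritic cells to lymph nodes, rose by 1.56 ± 0.36 (adjusted p = 0.0034, limma) and Ccrl2, an atypical receptor that binds chemerin, by 2.16 ± 0.15 (adjusted p = 1.4e-06). Those 5 were lower in R15 than in DDC, by log2 -1.41 to -2.14 (limma adjusted p 1.5e-05 to 0.0099). Over all tested genes 28.8% were lower there. Ccr2 was the one that also passed in R15 against Control, where 6.87% of all tested genes were higher. Without the 5 acinar libraries the difference of Ccr7 in R15 against DDC was log2 -1.32 and did not pass. That of Ccr2 in R15 against Control was 1.54, with 1 Control library left, and did not pass either. In a fit of R15 and Control alone Ccr2 did not pass (adjusted p = 0.065, limma). The median over the 6 was -1.68 in R15 against DDC and 0.41 in R15 against Control.

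Ackr2, which scavenges inflammatory CC chemokines, went the other way, at FPKM 0.466 to 2.02 in R15, 0.111 to 0.271 in DDC and 0.398 to 2.86 in Control. Its differences, log2 -0.87 ± 0.30 (SE; adjusted p = 0.027, limma) in DDC against Control and 0.86 ± 0.33 (adjusted p = 0.041) in R15 against DDC, were weak. The first lost its call without DDC 2, DDC 4, Control 3 or Control 4 (adjusted p 0.052 to 0.061). The second lost its call without R15 2, R15 3, any DDC library or Control 4 (adjusted p 0.053 to 0.15). Ackr2 reached FPKM 1 in no DDC library, and with no low-value filter the adjusted p was 0.049 and 0.073 in turn (limma). Ackr2 is known from lymphatic endothelium, and the 8 endothelial markers summed to FPKM 49.7 to 166 in R15, 11.7 to 38.5 in DDC and 75.6 to 342 in Control, with the part of such cells in Ackr2 not tested. Ccr6, the receptor of Ccl20, stayed under the filter, at FPKM 0.0498 to 0.147 in R15, 0.500 to 0.659 in DDC and 0.0256 to 0.105 in Control. Its DDC libraries lay above all others, but no test was made. Ackr4 and Ackr1, a scavenging receptor and a chemokine-binding protein of venules and red cells, were also untested, at means under FPKM 1.

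Markers of leukocytes were measured beside the chemokines. The 12 macrophage and Kupffer cell markers, all detected in every library, summed to FPKM 147, 794 and 177 in R15, 1402 to 2536 in DDC and 135 to 161 in Control, and all 12 had a higher mean in DDC than in Control. The 7 dendritic cell markers summed to 24.4 to 63.0 in R15, 66.6 to 85.2 in DDC and 15.4 to 24.7 in Control. The 8 neutrophil markers summed to 2.66 to 10.1, 41.7 to 70.2 and 1.38 to 3.95 in the same groups. S100a8 and S100a9, at means of 23.6 and 23.0 in DDC, supplied most of the neutrophil sums there. The neutrophil markers Ly6g, Mpo and Camp were at FPKM 0.0783 or below in every library. Of 9 monocyte markers, 7 had a higher mean in DDC than in Control. Their sums were 13.7 to 40.4 in R15, 63.8 to 95.5 in DDC and 10.2 to 64.7 in Control, and Plac8 alone supplied 56.7 of the 64.7 in Control 3. Means in DDC and Control were 15.4 and 0.831 for Ccr2, 15.1 and 2.65 for Itgam, and 11.5 and 0.571 for Fcgr1, and the defining marker Ly6c2 was at FPKM 0.395 to 2.21, 0.400 to 0.503 and 0.489 to 0.923. The part of such cells in the chemokine levels of DDC was not tested.

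Leukocyte markers also varied between the R15 libraries. R15 1 had a macrophage marker sum of 147, inside the Control range, and 1 of the 12 markers, Csf1r, at FPKM 48.9, above every Control library. Its Ccl2 at FPKM 31.0, Ccl7 at 1.51 and Ccl9 at 2.73 were also above every Control library. So were 2 of the 9 monocyte markers, Ccr2 at 2.10 and Vcan at 0.736. Ly6c2 at 0.395 and Itgam at 1.35 were below every Control library, and the other monocyte markers lay inside the Control range. Above every Control library were also 3 of 7 dendritic cell, 2 of 8 neutrophil, 1 of 10 T and NK cell and 0 of 6 B and plasma cell markers. Ccl6 at 3.24 and Ccl3 at 1.50 were inside their Control ranges (3.06 to 5.18 and 0.563 to 1.75), and Ccl12 was listed at 0. In R15 2 the macrophage sum was 794, with all 12 markers above every Control library, Ccl6 at 17.2, Ccl3 at 6.39 and Ccl2 at 40.5. In R15 3 the sum was 177, with 5 of 12 markers above every Control library and Ccl2 at 21.3. Without R15 2 the R15 mean of Ccl2 was 51.6 times the Control mean, and that of Ccl7 6.96 times. The share of all genes above every Control library is not given here for any R15 library. The marker counts in this paragraph are therefore a description and not a result about those cell types. The part of macrophages or monocytes in these R15 levels was not tested.

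**Figure D4:**
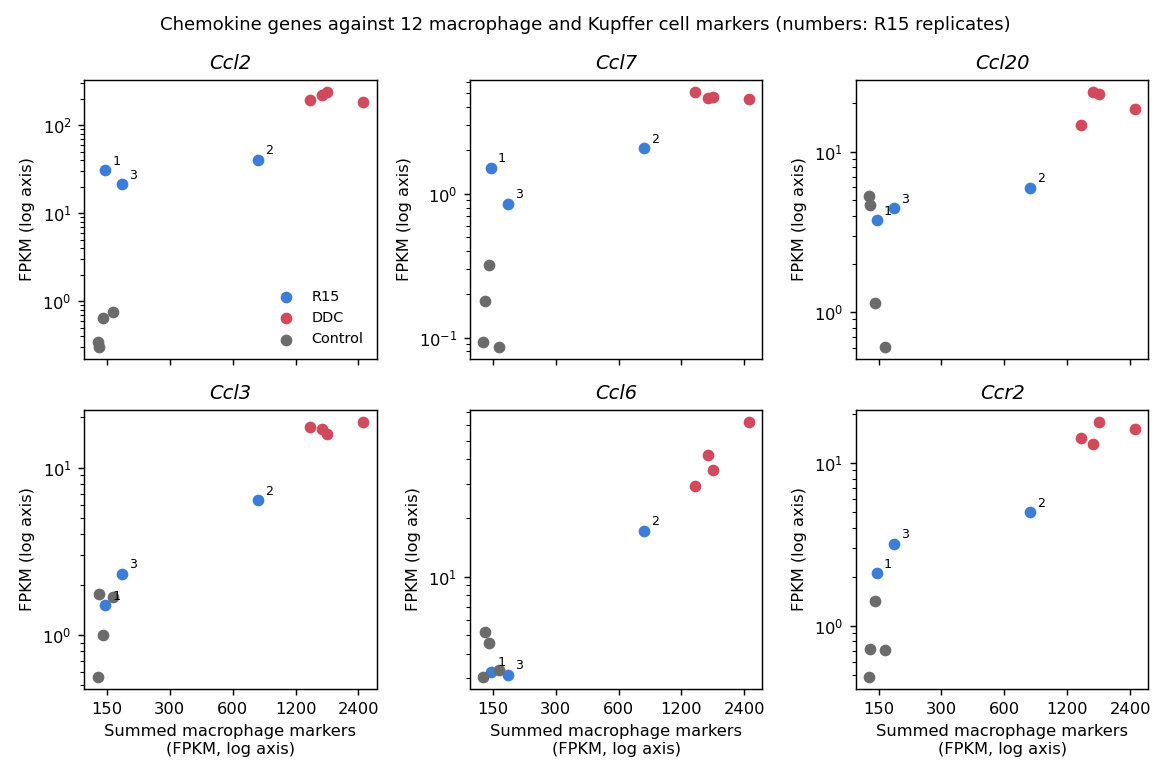
FPKM of Ccl2, Ccl7, Ccl20, Ccl3, Ccl6 and Ccr2 against the summed FPKM of 12 macrophage and Kupffer cell markers, both on log axes, for the R15, DDC and Control libraries. The marker sum of R15 1 (147) lies inside the Control range of 135 to 161 and that of R15 3 (177) just above it; both libraries lie far above Control for Ccl2, above it for Ccl7 and Ccr2, and among or close to Control for Ccl6 and Ccl3.

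Markers of the other cell types differed among themselves. The sum of 10 stellate cell, fibroblast and mural markers was FPKM 161 to 207 in R15, 418 to 502 in DDC and 29.9 to 59.8 in Control, but Rgs5 alone supplied nearly all of it. The other 9 summed to 2.36 to 7.29 in R15, 1.22 to 3.15 in DDC and 2.17 to 2.73 in Control. T and NK cell markers summed to FPKM 5.37 to 22.8 in R15, 4.75 to 6.26 in DDC and 3.64 to 8.57 in Control. Of the type 17 lymphocyte list, whose cells carry Ccr6, Il17a, Il17f and Il23r were at FPKM 0.0878 or below in every library. B and plasma cell markers summed to 38.4 to 173 in R15, 11.6 to 23.0 in DDC and 41.3 to 89.7 in Control. Jchain, at means of 81.6, 11.7 and 54.7 in turn, supplied most of that. Hepatocyte markers summed to 1730 to 2386, 1015 to 1537 and 2875 to 3563 in the same groups, mostly from Alb at means of 1731, 1028 and 2773. Of the 6 hepatocyte markers 2, Apoa1 and Serpina1a, had higher means in DDC and in R15 than in Control. Mesothelial markers summed to 39.8 to 44.6, 55.9 to 86.5 and 35.2 to 47.4 for R15, DDC and Control. Of the mesothelial markers, Msln had a higher mean in DDC, at 54.2 in DDC and 8.56 in Control, while the other 4 had lower means there, among them Gpm6a at 10.7 in DDC and 29.8 in Control.

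Genes of the NF-kB system, whose factors bind many chemokine promoters, were mostly higher in DDC. Over all tested genes, 33.5% were higher and 31.9% lower in DDC than in Control. Of 14 subunits, inhibitors and kinases, all tested, 12 were higher there and 0 lower at a limma adjusted p under 0.05. Their median log2 difference was 0.63. The 4 with the smallest p were Relb, a subunit of the noncanonical arm, at 1.52 ± 0.08 (SE; adjusted p = 2.5e-07, limma), the feedback inhibitor Tnfaip3 at 1.38 ± 0.13 (adjusted p = 7.4e-06), the kinase Ikbkb at 0.49 ± 0.05 (adjusted p = 1.5e-05) and the precursor subunit Nfkb1 at 0.54 ± 0.06 (adjusted p = 1.8e-05). Relb had FPKM 18.6, 21.8 and 19.1 in R15, 36.0, 37.1, 37.4 and 30.2 in DDC, and 11.1, 12.3, 11.1 and 11.9 in Control, with no overlap. In R15 against DDC, 33.4% of all tested genes were higher and 28.8% lower. Of the 14, 0 were higher and 10 were lower, with a median of -0.30. The 10 were led by Relb at -0.79 ± 0.08 (adjusted p = 2.8e-05, limma) and Tnfaip3 at -0.93 ± 0.14 (adjusted p = 0.00023). Rela at -0.33 ± 0.05 (adjusted p = 0.00055) and Ikbkb at -0.28 ± 0.05 (adjusted p = 0.0011) came next. Without R15 3 the 10 became 6.

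Of all tested genes, 6.87% were higher in R15 than in Control and 2.72% lower. Of the 14 NF-kB genes, 5 were higher there and 0 were lower, with a median of 0.40. They were Relb at log2 0.72 ± 0.08 (SE; adjusted p = 0.00098, limma), Nfkb2, the partner precursor of Relb, at 0.57 ± 0.09 (adjusted p = 0.0066), Nfkb1 at 0.35 ± 0.06 (adjusted p = 0.0091), the inhibitor Nfkbie at 0.59 ± 0.11 (adjusted p = 0.014) and Ikbkb at 0.21 ± 0.05 (adjusted p = 0.038). Nfkb2 had FPKM 38.5, 50.2 and 40.8 in R15, 47.8, 51.0, 50.7 and 41.6 in DDC, and 27.7, 29.6, 27.4 and 29.4 in Control. Its R15 and DDC libraries overlapped and all lay above Control. Without the 5 acinar libraries these calls were lost, with 1 Control library left. The differences then were log2 0.71 for Relb, 0.57 for Nfkb2, 0.36 for Nfkb1 and 0.77 for Nfkbie. In a fit of R15 and Control alone, 237 of 14528 genes tested were higher. Of the 14, 3 were, Nfkbie not among them (adjusted p = 0.063, limma).

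Regulators of chemokine mRNA decay were mixed. Of 8, all tested, 4 were higher and 1 was lower in DDC than in Control (all tested genes: 33.5% and 31.9%). Among the 8 the median log2 difference was 0.20. The 4 with the smallest p were Hnrnpd, an AU-rich element binding protein, at 0.59 ± 0.06 (SE; adjusted p = 2.0e-05, limma), the stabilising protein Elavl1 at -0.20 ± 0.04 (adjusted p = 0.00082), the destabilising protein Zfp36l1 at 0.31 ± 0.07 (adjusted p = 0.0023) and Zc3h12a, which encodes the ribonuclease Regnase, at 1.11 ± 0.29 (adjusted p = 0.0065). Zc3h12a had FPKM 7.89 to 8.97 in R15, 17.3 to 22.5 in DDC and 5.71, 4.69, 10.8 and 15.9 in Control, where the same Control libraries, 3 and 4, were high as for Ccl20. Without the 5 acinar libraries, which leaves 1 Control library, its difference was 0.28 and did not pass. Those of Elavl1 and Zfp36l1 were -0.20 and 0.34 and did not pass either. Zfp36 was at FPKM 106 to 220 in R15, 211 to 286 in DDC and 93.4, 56.6, 104 and 270 in Control. In R15 against DDC 3 of the 8 were higher and 2 lower, close to the shares of 33.4% and 28.8% over all tested genes. Their median was 0.11. Smallest in p were Hnrnpd at -0.50 ± 0.07 (adjusted p = 0.00014, limma) and Elavl1 at 0.25 ± 0.04 (adjusted p = 0.00036). Next were Khsrp at 0.21 ± 0.05 (adjusted p = 0.0029) and Rc3h1 at 0.29 ± 0.08 (adjusted p = 0.0095). Zfp36l1 alone passed in R15 against Control, at 0.48 ± 0.07 (adjusted p = 0.0046, limma), where the median was 0.16 and 0 were lower. Over all tested genes 6.87% were higher and 2.72% lower in that comparison. Without the acinar libraries, with 1 Control library left, the Zfp36l1 difference was 0.50 and did not pass.

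**Figure D5:**
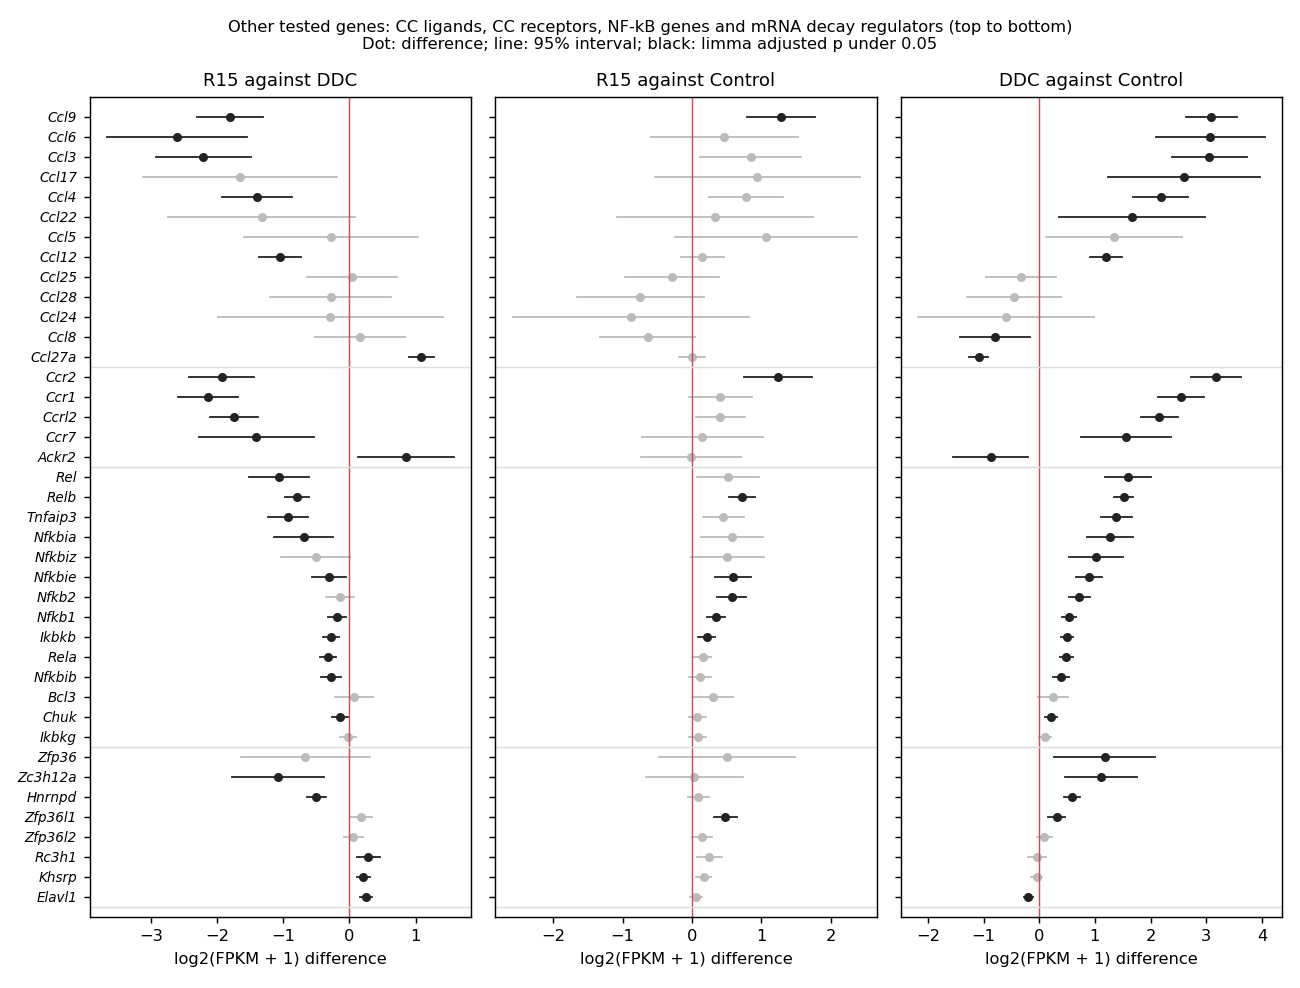
Differences on the log2(FPKM + 1) scale with 95% intervals for tested genes of the 4 lists (1 receptor is not drawn), in R15 against DDC, R15 against Control and DDC against Control; black marks a limma adjusted p under 0.05. NF-kB genes lie to the right of 0 in DDC against Control (12 of 14 passing), and 5 of them, with Ccl9, Ccr2 and Zfp36l1, still pass in R15 against Control.

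Genes whose levels followed the members most closely over the 11 libraries were found by setting each gene in percent of its own highest group mean and averaging the absolute differences. Among 10167 genes compared, Ccl2 was closest to Il1rn, the interleukin 1 receptor antagonist, with a mean difference of 5.38 percentage points, then Timp1, a metalloprotease inhibitor (5.41), Cpe, carboxypeptidase E (5.63), Foxm1, a transcription factor of mitosis (5.89), and Plau, urokinase (5.95). Il1rn averaged FPKM 9.95 in R15, 74.4 in DDC and 3.99 in Control, and Timp1 averaged 2.01, 18.0 and 0.604. In Control these 5 stood at 1.84% to 12.0% of their DDC mean, against 0.245% for Ccl2. Genes among the closest to Ccl7 were Rgs5 (5.01 points), Cpe (5.90), Serpine2 (5.91) and the integrin Itga2 (5.93). Ccl20 was closest to Klrb1b, a receptor of natural killer cells (6.64), the cytokine Tnf (6.86), Cd14, which binds lipopolysaccharide (7.26), the neutrophil chemokine Cxcl1 (7.87) and Mycl (7.91). The members themselves lay 9.69 points apart for Ccl2 and Ccl7, 11.1 for Ccl2 and Ccl20 and 13.7 for Ccl7 and Ccl20. The genes above were picked as the nearest, so larger distances between members are no result about them. Among the genes compared, 72 were closer to Ccl2 than Ccl7 was, and 105 were closer than Ccl20 was. To Ccl7, 64 genes were closer than Ccl2 and 311 closer than Ccl20. To Ccl20, 66 genes were closer than Ccl2 and 221 closer than Ccl7.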

How the data were processed

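RNA of EpCAM bead-selected liver cells was measured in 11 libraries (3 R15, 4 DDC and 4 Control), from stranded mRNA kits per the labels' protocols. Values are FPKM as the authors deposited them, in a single table that also lists gene lengths and coordinates. The build is mm10 per the submitters' processing notes. The aligner, the counting tool and its strand setting were not given in the sources used here, so reads of overlapping opposite genes may not be separated. Of 43346 gene IDs, 42462 were found in GENCODE M21, and the other IDs were used as the table gives them. All 37 mitochondrial genes were listed at 0.

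Taking a library's smallest value step as 1 read and the listed length plus 1 as the gene length, both inferred from the values, FPKM gave whole reads for 100% of nonzero values within 0.001. These reads gave the depth and 1 alternative test. They cover counting error only. Levels were compared with limma 3.58.1 in R 4.3.3 on log2(FPKM + 1), with trend, in 1 fit of 3 group means over genes at FPKM 1 or more in at least 3 libraries, with 2-sided p-values adjusted by Benjamini-Hochberg over 15264 genes. The procedure was tested on simulated data. Other settings tried were a pseudocount of 0.1 or 5, a filter at FPKM 5 or none, other scalings, 2-group fits, robust estimation, a block for replicate number, voom on the recovered reads, each library left out, and the 5 acinar libraries left out.

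The members and lists were chosen with earlier results of these data known. Genes named were the 3 members, the CC ligands and receptors with a group mean of FPKM 1 or more, the 4 smallest p-values per comparison among those passing in the NF-kB and mRNA decay lists, the 5 nearest patterns per member among tested genes with a highest group mean of FPKM 5 or more, and neighbouring genes. Ccl19, Ccl27b, Ccr6, Ackr1, Ackr4, Zfp36, Ikbkb in R15 against Control, and marker genes were named outside that rule, after their values were seen. Ccl21c and Trdc, also listed, were not matched to the table. Values of a few single genes are not reported here, though list counts include them. Tables were handled in Python 3.11.15 with pandas 2.3.3.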

Additional observations from a re-analysis of the deposited data

Results flagged for a closer look

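A test for a sample far from the rest of its group was applied to the 88 groups of 4 libraries given by the members and listed genes, and chance alone marks about 1 group in 20. It marked 3. Ccl24 was at FPKM 4.145 in DDC 4, against 1.435 to 1.757 in the other DDC libraries. Ccl25 was at FPKM 4.737 in Control 3, against 1.071 to 1.294 in the other Control libraries. Ccl27a was at FPKM 2.723 in DDC 2, against 2.404 to 2.446 in the other DDC libraries. No group of Ccl2, Ccl7 or Ccl20 was marked, and R15, with 3 libraries, could not be assessed this way.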

How the results depend on the processing

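For the listed genes named, 1665 of 1756 alternative values kept their direction and their side of the threshold, 22 newly passed and 39 no longer passed. Another 30, in 14 differences, turned sign, and none of those was past the threshold as reported or under the alternative. The cause was not tested for any of the changes below, except that pseudocounts set the scale, no filter adds genes, and the filter at FPKM 5 and the exclusions remove genes or libraries. In DDC against Control, with a pseudocount of 0.1, a pseudocount of 5 and voom, the log2 difference was 8.48, 5.26 and 8.75 for Ccl2 and 4.24, 0.91 and 4.88 for Ccl7, and for Ccl20 it was 1.68 with a pseudocount of 5. In R15 against Control the same 3 settings gave 5.70, 2.67 and 5.93 for Ccl2 and 2.55, 0.32 and 3.08 for Ccl7. In R15 against DDC they gave -1.69, -0.59 and -1.80 for Ccl7.

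Leaving out the 5 acinar libraries, chosen after seeing the data, gave log2 1.82 for Ccl20 in DDC against Control, -1.01 for Ccl7 in R15 against DDC, and 4.77 for Ccl2, 1.35 for Ccl7 and a reversed -0.14 for Ccl20 in R15 against Control, where the lone Control library is assumed to vary like the other groups. Without them, in DDC against Control, fewer ligands and receptors passed as lower, and fewer decay regulators passed in either direction. In R15 against DDC Ackr2 did not pass as higher, and fewer NF-kB genes passed as lower. The listed genes lost their calls as higher in R15 against Control, where few genes of any kind passed with 1 Control library left. Differences there were log2 0.71 for Relb, 0.57 for Nfkb2, 1.66 for Ccl9, 1.54 for Ccr2 and 0.50 for Zfp36l1.

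In DDC against Control, 1 ligand was lower with the filter at FPKM 5 or 2-group fits, and 0 receptors were. No filter gave 9 receptors higher and 3 lower, beside 6070 and 5403 of 29687 genes. In R15 against DDC, no filter gave 2 ligands higher, 2 receptors higher and 8 lower, beside 5777 higher and 4970 lower of 29687 genes. A pseudocount of 5, the filter at FPKM 5 and 2-group fits gave 0 receptors higher. Quantile normalization gave 5 decay regulators higher, beside 4991 of 15264 genes. With 2-group fits 0 ligands, 0 receptors and 3 NF-kB genes were higher in R15 against Control, as were 237 of 14528 genes tested.

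Leaving out each library gave 0 to 1 receptors and 1 to 3 ligands lower in DDC against Control, 0 to 1 receptors higher and 6 to 11 NF-kB genes lower in R15 against DDC, and 1 to 2 ligands higher, 0 to 1 lower and 1 to 3 decay regulators higher in R15 against Control. It gave log2 0.89 to 1.25 and -1.40 to -1.04 for Ccl7 in R15 against Control and against DDC, and 0.41 to 1.07 for Ccl20 in R15 against Control.

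Of the values that turned sign, leaving out the acinar libraries gave log2 0.92 for Ccl24 and 0.11 for Ccl25 in DDC against Control, 0.047 for Ccl24 in R15 against DDC, and 0.97 for Ccl24 and 0.13 for Ccl25 in R15 against Control. A pseudocount of 0.1 gave -0.013 for Ccl8 in R15 against DDC, and 1e-04 for Ccl27a and 0.012 for Ackr2 in R15 against Control. Voom gave -0.26 for Ccl8 in R15 against DDC, rescaling gave 0.025 for Ccl27a in R15 against Control, and the replicate block gave -0.026 for Ccl25 in R15 against DDC and 0.0083 for Ackr2 in R15 against Control. Leaving out each library gave -0.47 to 0.024 for Ccl25 in DDC against Control. It gave -0.88 to 0.48 for Ccl5, -1.11 to 0.15 for Ccl24 and -0.048 to 0.12 for Ccl25 in R15 against DDC. In R15 against Control it gave -0.24 to 0.83 for Ccl6, -0.038 to 0.29 for Ccl12, -0.19 to 0.87 for Ccl22, -0.43 to 0.059 for Ccl25, -0.048 to 0.067 for Ccl27a, -0.36 to 0.49 for Ccr7 and -0.24 to 0.28 for Ackr2.

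Replicate numbers did not pair the libraries, since deviations of the 10 same-numbered pairs correlated at -0.28 to 0.30, 3 of them over 0.1, and 3 of 20 comparisons matched best on their own number. With the replicate block, 1 ligand was lower in DDC against Control, Ccl22 and Ccl8 lost their calls (adjusted p 0.055 and 0.067), and Ccl17 passed as lower in R15 against DDC (0.035). Calls over all genes in R15 against Control were 693 with the replicate block and 305 with 2-group fits, against 1463. Ccl7 rested on 4 to 18 reads per Control library, and Ccl12 on 0 to 6.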
